A study of Mus musculus with 12 samples.

Results

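The expression of 31 genes of bile acid synthesis and transport was examined in mouse liver. The genes were chosen by symbol, from enzymes, transporters, receptors and signalling partners of the hepatic bile acid system, and were matched through their Ensembl identifiers in the count table. All 31 matched 1 of the 51912 identifiers in the table, and all 31 were among the 18098 genes with enough counts to be tested. The members fall into 6 roles, with 8 enzymes of the classic and alternative routes, 5 genes of side chain shortening and conjugation, 4 importers of the blood-facing membrane, 6 transporters of the canalicular membrane, 2 exporters of the blood-facing membrane and 6 receptors or signalling genes.

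Gene expression was measured by 3' mRNA sequencing of total liver RNA from 12 mice in 4 groups of 3. The groups were Mlkl-/- mice on high-fat diet (HFD), wild-type mice on HFD, Mlkl-/- mice on normal chow (ND) and wild-type mice on ND. MLKL is the pseudokinase that breaks the plasma membrane in necroptosis, and the series concerns diet-induced obesity and fatty liver. The HFD held 36% fat and gave 59% of its energy as lipid. The sample labels give 25 weeks of diet for all 4 groups, whereas the series text gives 16 to 25 weeks, begun at 8 to 9 weeks of age. Per the series text, RNA came from fed animals picked for mean organ weights, so the livers are not a random draw of each group. The labels give Mlkl-/- with no Cre or promoter, and the sources used here do not say where the deletion lies.

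Library totals ran from 19435391 to 32120426 counts. Levels are given as CPM, a gene's share of the library's counts scaled up to a common size, with TMM factors, a method that corrects library sizes for composition. Mlkl was at 0.763, 0.433 and 1.40 CPM in the Mlkl-/- HFD libraries, against 5.37, 7.65 and 4.24 CPM in the wild-type HFD libraries. In edgeR the log2 fold change was -2.71 (adjusted p = 0.0166). Mlkl was at 0.786, 0.664 and 0.790 CPM in the Mlkl-/- ND libraries, against 3.08, 3.73 and 3.01 CPM in the wild-type ND libraries (-2.12, adjusted p = 0.144 in edgeR). It was thus lower in all 6 Mlkl-/- libraries, although 3' reads that lie outside the deleted part would not check the genotype. Hepatocyte markers were abundant in every library, with 9 of 10 listed genes matched and a summed level of 62130 to 125500 CPM. At 8 loci, mostly annotated small RNAs, 6 libraries held 3484 to 9239 summed CPM before TMM scaling and 6 held 378 to 656. All Mlkl-/- HFD libraries, wild-type HFD replicates 2 and 3 and Mlkl-/- ND replicate 1 are on the high side, so this split runs largely with diet. A code of unknown meaning in the sample titles also divides the libraries, with 25 or 29 on HFD livers and 23 or 27 on ND livers. No code stands on both diets, so single codes and diet cannot be told apart. For this work the lower codes of each diet (25 and 23) were joined into a lower level and the others (29 and 27) into a higher level, a pairing by order that the labels do not give. The lower level holds Mlkl-/- HFD replicates 1 and 2, wild-type HFD replicate 1, Mlkl-/- ND replicate 1 and wild-type ND replicates 1 and 2.

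Hepatocytes make bile acids from cholesterol by a classic route, which begins with Cyp7a1, and an alternative route, in which Cyp27a1 and Cyp7b1 act early. The acids are conjugated, pumped into bile by the canalicular exporter Abcb11, and taken back from portal blood by Slc10a1 and organic anion transporters. The nuclear receptor FXR, encoded by Nr1h4, senses bile acids and raises the co-repressor Nr0b2 (SHP), and intestinal FGF15 acting on Fgfr4 with Klb also restrains Cyp7a1.

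As levels over all 12 libraries, the sterol carrier Scp2 was the most abundant member at a mean of 4219 CPM and the exporter Abcc4 the least abundant at 2.28 CPM. With 3' sequencing a transcript gives about 1 read end whatever its length, so CPM values of different genes were set side by side without division by length. The ratio of the highest to the lowest library was 17.9 for Slco1a1, 11.4 for Cyp7b1, 8.00 for Cyp2c70, 6.97 for Cyp7a1 and 6.71 for Nr0b2. It was 1.33 for Scp2 and 1.37 for Hsd3b7. The median within-group SD of log2 CPM was 0.268 over the members and 0.287 over all tested genes. Most members are abundant, and over the 13170 tested genes at or above the mean CPM of the least abundant member that median was 0.236, with 19 of 31 members above it.

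**Figure D1:**
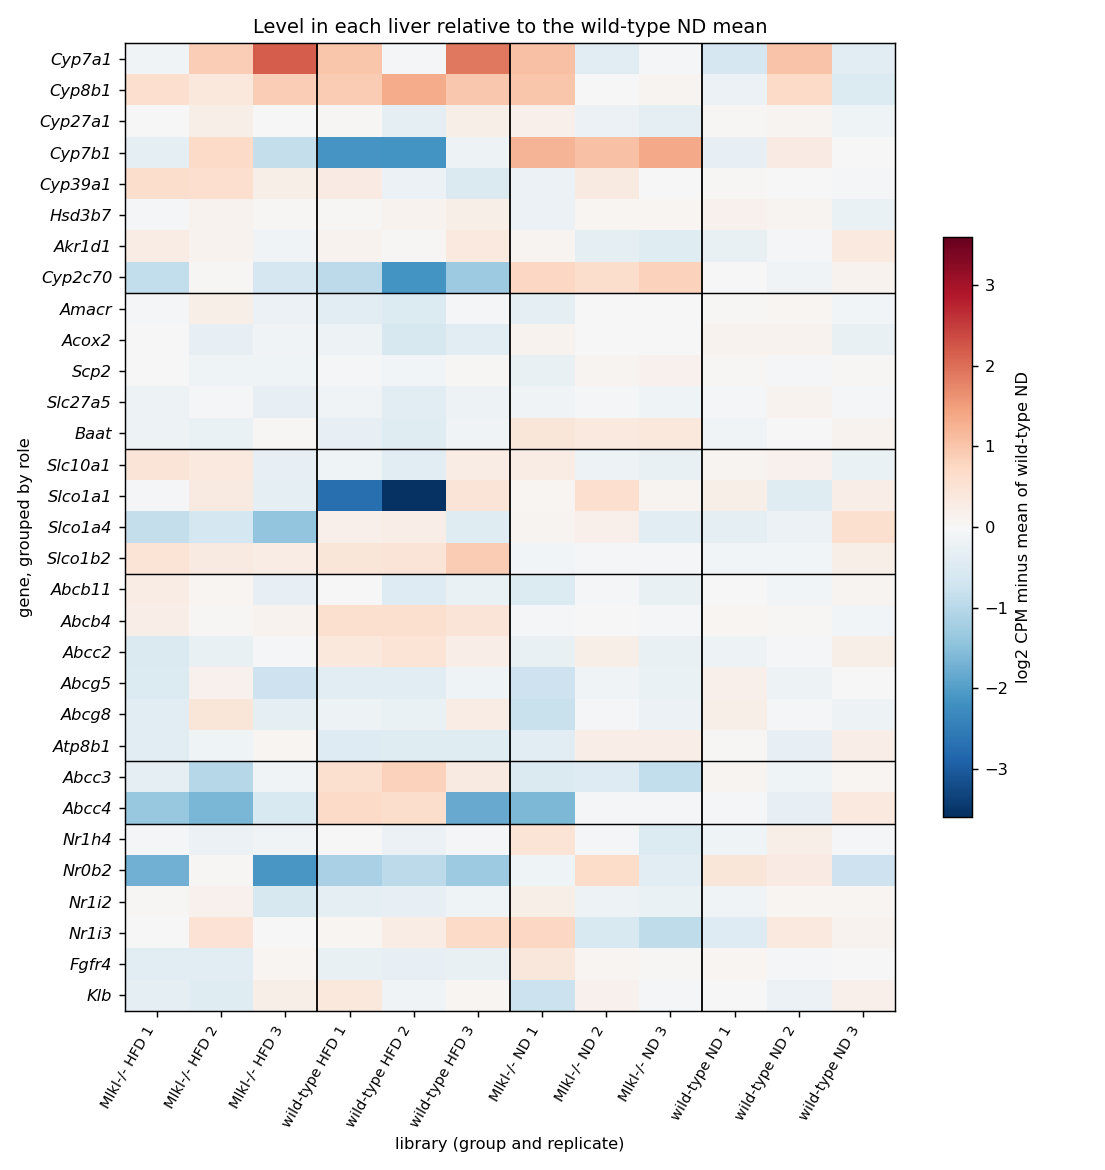
Heat map of the 31 members (rows, grouped by role with lines between roles) in the 12 livers (columns, by group and replicate), coloured by log2 CPM minus the mean of the wild-type ND livers. Blue cells mark Cyp2c70 in the wild-type HFD livers and Slco1a1 in replicates 1 and 2 of the wild-type HFD group, where it reached -3.55. Cyp7b1 is red in the 3 Mlkl-/- ND livers.

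Over both genotypes together, 2 members fell and 2 rose on HFD, at an adjusted p under 0.05 in edgeR's quasi-likelihood test with Benjamini-Hochberg adjustment over all tested genes. Cyp2c70 and the conjugating enzyme Baat fell, while the importer Slco1b2 and the phospholipid exporter Abcb4 rose. These 4 members are 12.9% of the list, against 7.19% of all tested genes (3.57% higher and 3.62% lower). DESeq2 called the same 4 and Cyp8b1, where it called 10.8% of all tested genes, and limma-voom the same 4 with Cyp7b1 and Nr0b2, where it called 6.95%. The median log2 fold change of the members was -0.07, against -0.01 over all tested genes.

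In wild-type mice alone, 3 members passed, with Slco1b2 and Abcb4 higher and Cyp2c70 lower, which is 9.68% of the members against 4.23% of all tested genes (2.02% higher and 2.21% lower). DESeq2 called these 3 and Cyp8b1, against 8.09% of all tested genes. At an unadjusted p under 0.05 the members gave 7, or 22.6%, against 20.5% of all tested genes, so by that count they were near the background. The HFD and ND libraries did not overlap for 11 members in wild-type mice, which is 35.5% against a background of 29.1%. In Mlkl-/- mice 0 members passed in edgeR, where 0.359% of all tested genes did. There, 6 members had an unadjusted p under 0.05 (19.4% against 13.6%), limma-voom also called 0 (0.265% of all tested genes), and DESeq2 called Cyp2c70, Baat and Slco1a4, all lower on HFD, where it called 2.84% of all tested genes. HFD and ND livers did not overlap for 6 members in Mlkl-/- mice, or 19.4% against 15.5% of all tested genes. The median log2 fold change of the members was 0.0036 in Mlkl-/- mice, against -0.017 over all tested genes. The averaged comparison uses the same 12 livers as the comparisons within each genotype.

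**Figure D2:**
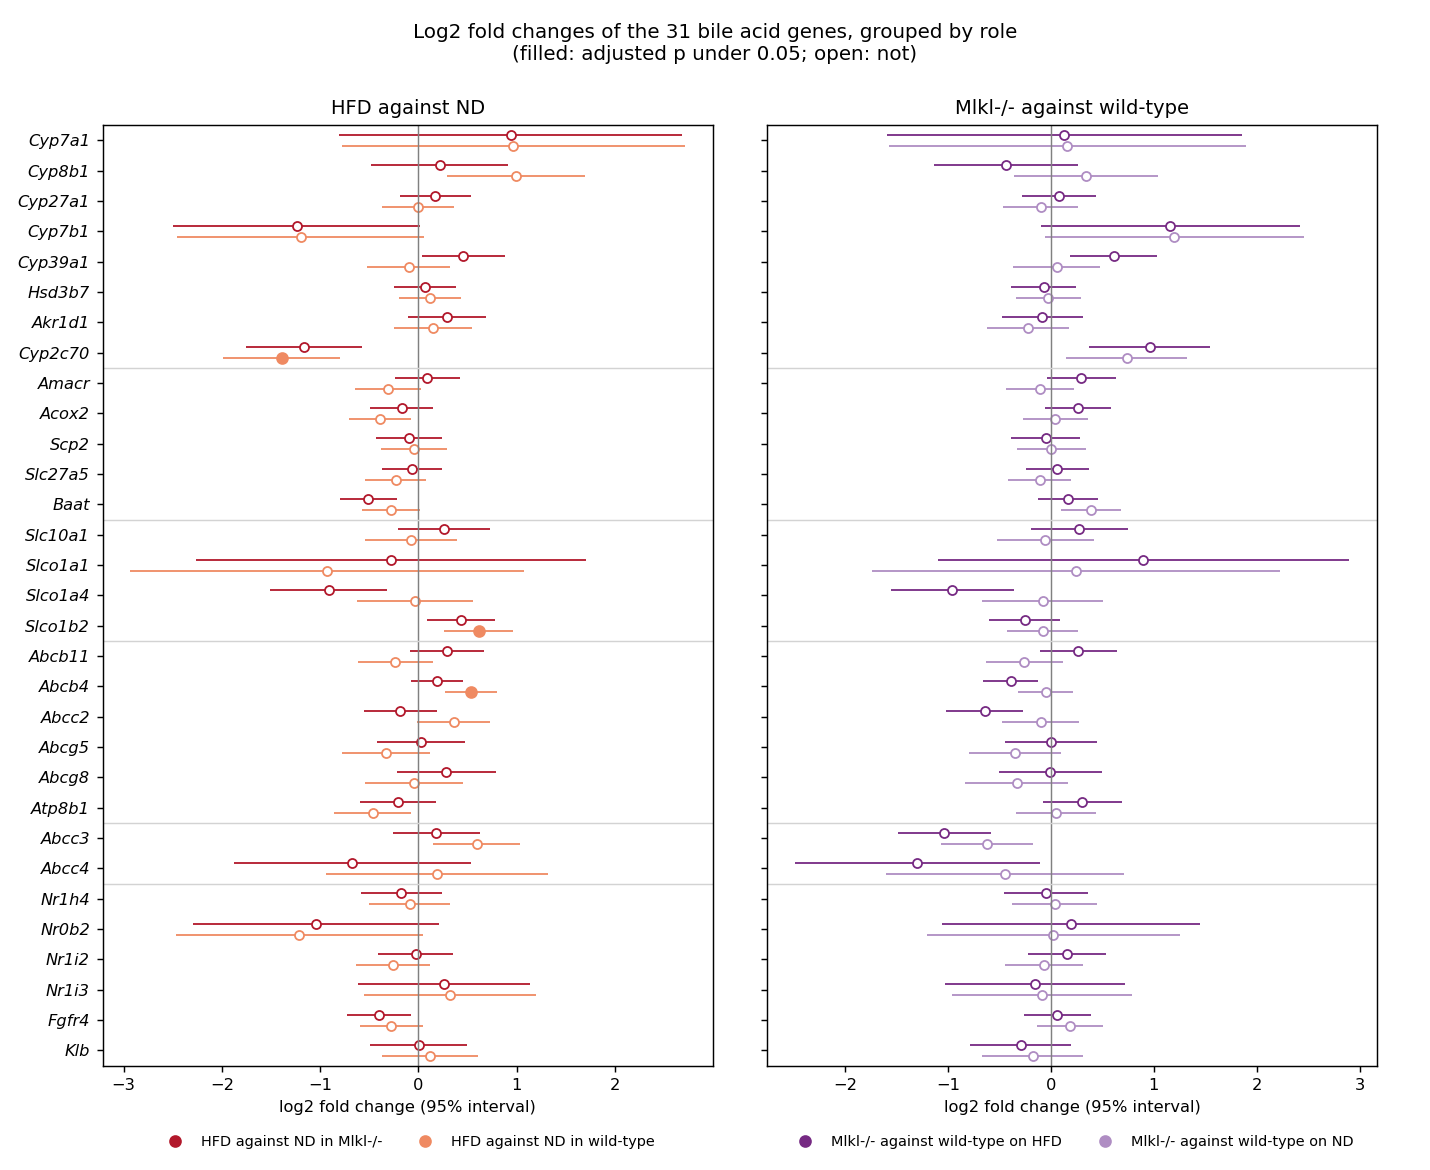
Log2 fold changes with 95% intervals for the 31 members, grouped by role, from edgeR's fit. The left panel plots HFD against ND in Mlkl-/- and in wild-type livers and the right panel Mlkl-/- against wild-type livers on HFD and on ND. Filled points passed at an adjusted p under 0.05: Cyp2c70, Slco1b2 and Abcb4 in wild-type livers on the left and no member on the right.

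The 200 bases from 250 to 51 bases upstream of the RefSeq start are shown for 4 genes: the 3 members that passed in wild-type mice, and Cyp8b1, which shares with Cyp2c70 a motif of the type bound by HNF4A. They were read from RefSeq promoter sequence on GRCm38.p6, 5' to 3' on the gene's strand. Capitals mark AGGTCA, the core element of nuclear receptor sites, or its reverse complement, and CAAAGTCCA, the HNF4A-type motif, with no overlap between them.
Cyp2c70: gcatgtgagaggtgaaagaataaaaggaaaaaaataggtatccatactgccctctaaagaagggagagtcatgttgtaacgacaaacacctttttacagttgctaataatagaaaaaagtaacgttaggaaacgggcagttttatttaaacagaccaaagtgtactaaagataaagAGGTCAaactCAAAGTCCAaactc
Cyp8b1: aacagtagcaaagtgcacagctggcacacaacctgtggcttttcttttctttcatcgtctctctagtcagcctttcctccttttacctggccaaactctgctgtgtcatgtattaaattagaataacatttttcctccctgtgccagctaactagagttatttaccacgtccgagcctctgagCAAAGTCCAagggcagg
Slco1b2: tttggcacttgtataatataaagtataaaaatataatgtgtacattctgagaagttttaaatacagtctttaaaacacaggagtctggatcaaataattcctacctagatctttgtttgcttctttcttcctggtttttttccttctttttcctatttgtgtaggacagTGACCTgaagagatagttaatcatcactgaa
Abcb4: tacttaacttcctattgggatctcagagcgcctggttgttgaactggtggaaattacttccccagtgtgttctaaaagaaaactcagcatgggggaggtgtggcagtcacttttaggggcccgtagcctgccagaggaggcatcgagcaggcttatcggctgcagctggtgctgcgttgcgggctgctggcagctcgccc

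The regions are chr19:40187337-40187536 on the minus strand for Cyp2c70, chr9:121916356-121916555 on the minus strand for Cyp8b1, chr6:141629268-141629467 on the plus strand for Slco1b2 and chr5:8893471-8893670 on the plus strand for Abcb4. The RefSeq start is the GENCODE one for Cyp8b1 and Slco1b2 and lies inside the GENCODE gene for Cyp2c70 and Abcb4. Windows of 250 upstream bases were found for 23 members, as 27 windows. On either strand AGGTCA stood in 9 of these windows and in 14% of the 32851 windows of all genes. CAAAGTCCA stood in the windows of Cyp2c70 and Cyp8b1 and in 0.384% of all windows. The whole Abcb4 window held none of the motifs searched. The extended forms IR-1 and DR-4 were in 0 member windows, against 0.00609% and 0.0152% of all windows. CAAGGTCA or CAAGGCCA, the extended element bound by NR5A2, stood in the window of Nr0b2 and in 3.28% of all windows. Hnf4a itself, named here after its values were seen, had a diet log2 fold change of 0.0029 in Mlkl-/- mice and -0.60 in wild-type mice, where its adjusted p was 0.0509 in edgeR. These matches describe letters in short windows and say nothing of binding. Cyp7a1, Cyp7b1, Baat, Abcc3, Cyp39a1, Amacr, Slc27a5 and Atp8b1 had no window.

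Among the enzymes, Cyp2c70, which in mice makes the muricholic acids that rodent bile holds, had the lowest adjusted p. Its gene lies at chr19:40153353-40187333 on the minus strand of mm10. It was at 194, 373 and 236 CPM in the Mlkl-/- HFD livers, against 603, 557 and 646 CPM in the Mlkl-/- ND livers. In wild-type livers it was at 188, 80.7 and 145 CPM on HFD, against 365, 328 and 393 CPM on ND. The HFD and ND livers did not overlap in either genotype. Averaged over genotypes, the log2 fold change of Cyp2c70 was -1.28 (SE 0.195, edgeR adjusted p = 0.00254). In wild-type mice the log2 fold change was -1.39 (SE 0.277, adjusted p = 0.0173 in edgeR). In Mlkl-/- mice it was -1.17 and did not pass (SE 0.275, adjusted p = 0.0916 in edgeR). The difference between the 2 genotypes' diet effects was 0.22 with a 95% interval of -0.60 to 1.05.

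The averaged Cyp2c70 call held without any one of the 12 libraries, but was lost once the level of the 8 loci entered the model (-1.06, edgeR adjusted p = 0.0730). Among libraries of the lower code level the value was -0.98 (adjusted p = 0.161 in edgeR), and among those of the higher level it was -1.56 (adjusted p = 0.0110 in edgeR). In wild-type mice the call ended without wild-type ND replicate 1, 2 or 3 or without wild-type HFD replicate 2 (adjusted p = 0.0577 to 0.0747 in edgeR), and with the 8-locus term (-1.18, adjusted p = 0.0803). No other mouse gene matched the last 300 bases of its coding transcripts at 95% identity over 75 bases.

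The conjugating enzyme Baat, which joins bile acids to taurine or glycine, was at 201, 196 and 238 CPM in the Mlkl-/- HFD livers, against 314, 291 and 301 CPM in the Mlkl-/- ND livers. In wild-type livers it was at 188, 170 and 211 CPM on HFD, against 211, 232 and 249 CPM on ND. The groups did not overlap in Mlkl-/- livers, and in wild-type livers the highest HFD value lay just above the lowest ND value. The averaged log2 fold change was -0.40 (SE 0.0969, adjusted p = 0.0245 in edgeR). The call was lost when libraries were scaled by total counts alone (-0.26, edgeR adjusted p = 0.102), a setting that moves the median of all genes to 0.13. It also ended without Mlkl-/- HFD replicate 1 or 2, wild-type HFD replicate 1 or 2, Mlkl-/- ND replicate 2 or wild-type ND replicate 2 or 3 (adjusted p up to 0.0740 in edgeR), with the 8-locus term (-0.43, adjusted p = 0.147) and among libraries of the lower (-0.45, adjusted p = 0.221) and higher (-0.33, adjusted p = 0.196) code level. The other conjugation and side chain genes did not pass. Slc27a5, which activates bile acids with coenzyme A, had a diet log2 fold change of -0.15, and the peroxisomal oxidase Acox2 one of -0.28. The racemase Amacr and Scp2 were at -0.11 and -0.07.

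**Figure D3:**
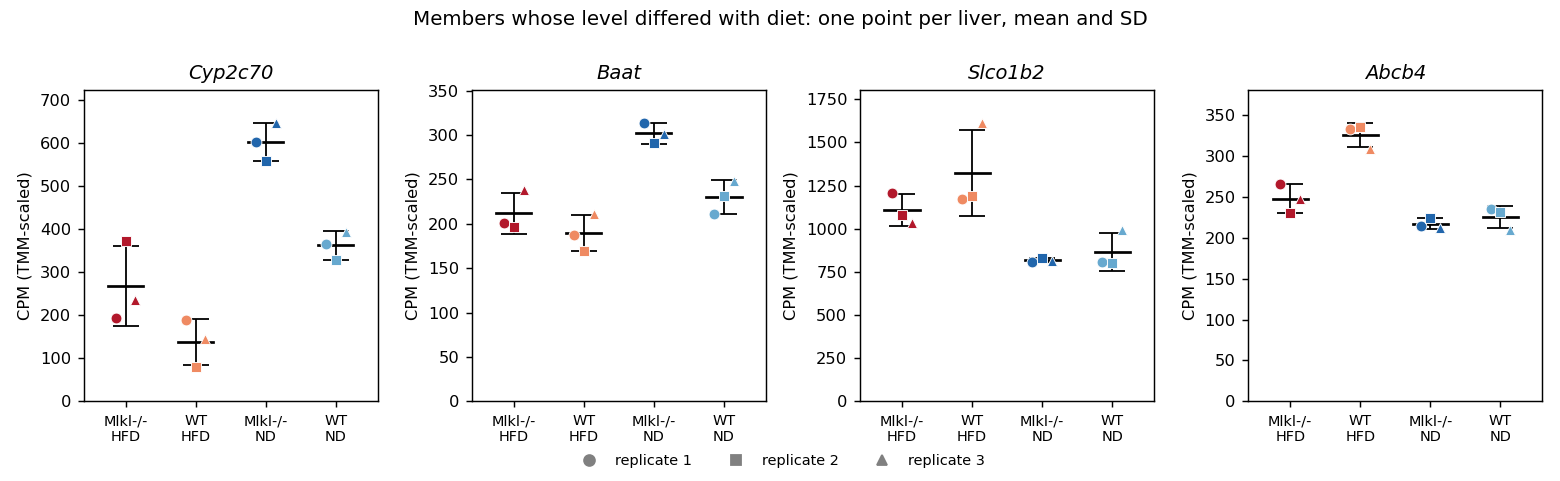
Level in CPM (TMM-scaled, linear axis from 0) of the 4 members that differed with diet, one point per liver, with the mean and SD of each group. In each genotype every HFD liver lay below every ND liver for Cyp2c70, and above every ND liver for Slco1b2 and Abcb4.

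Slco1b2, an organic anion transporter that takes bile acids and drugs up from blood, was at 1209, 1081 and 1032 CPM in the Mlkl-/- HFD livers, against 809, 833 and 815 CPM in the Mlkl-/- ND livers. In wild-type livers it was at 1171, 1190 and 1613 CPM on HFD, against 807, 802 and 993 CPM on ND. HFD livers were above ND livers in both genotypes, with no overlap. Averaged over genotypes, Slco1b2 had a log2 fold change of 0.52 (SE 0.115, edgeR adjusted p = 0.0158), a call that held without any one of the 12 libraries. In wild-type mice the log2 fold change was 0.61 (SE 0.163, adjusted p = 0.0483 in edgeR), which held only in the fits without Mlkl-/- HFD replicate 2, Mlkl-/- ND replicate 1 or Mlkl-/- ND replicate 3 and ended without any one of the other 9 libraries, with adjusted p up to 0.160. The wild-type call also ended with the code level as a term (0.57, adjusted p = 0.0695), without robust estimation (adjusted p = 0.0545) and with the 8-locus term (0.53, adjusted p = 0.184). The averaged value was 0.44 with the 8-locus term (adjusted p = 0.223), 0.52 in the lower code level (adjusted p = 0.191) and 0.43 in the higher (adjusted p = 0.182), all by edgeR and none called.

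The phospholipid flippase Abcb4, which adds phosphatidylcholine to bile, was at 266, 230 and 247 CPM in the Mlkl-/- HFD livers, against 214, 225 and 212 CPM in the Mlkl-/- ND livers. In wild-type livers it was at 333, 336 and 309 CPM on HFD, against 235, 231 and 210 CPM on ND. Each group of HFD livers was above its ND livers without overlap. In wild-type mice Abcb4 had a log2 fold change of 0.53 (SE 0.124, edgeR adjusted p = 0.0280), while in Mlkl-/- mice it had one of 0.19 (SE 0.123, adjusted p = 0.519 in edgeR). The difference of the 2 diet effects was -0.34, with a 95% interval of -0.71 to 0.03. Averaged over genotypes the log2 fold change was 0.36 (adjusted p = 0.0231 in edgeR), and 8 of the 12 fits without 1 library called it. The averaged call ended without Mlkl-/- HFD replicate 1, wild-type HFD replicate 1 or 2 or wild-type ND replicate 3, and the wild-type call without wild-type HFD replicate 1 or 2 or any wild-type ND replicate. With no filter on low counts the adjusted p was 0.0539 for the average and 0.0542 in wild-type mice. The averaged value was 0.39 with the 8-locus term (adjusted p = 0.153), 0.36 in the lower code level (adjusted p = 0.301) and 0.41 in the higher (adjusted p = 0.146). The last 300 bases of an Abcb4 transcript resemble sequence somewhere in transcripts of Abcb1a and Abcb1b. Some reads may thus be shared and the value is uncertain. Abcb1a itself held 7.98 to 22.0 CPM.

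The first enzyme of the classic route, Cyp7a1, was at 53.2, 106 and 263 CPM in the Mlkl-/- HFD livers, against 121, 43.6 and 56.6 CPM in the Mlkl-/- ND livers. In wild-type livers it was at 116, 54.9 and 216 CPM on HFD, against 37.8, 117 and 43.6 CPM on ND. The groups overlapped in both genotypes, with the highest level in replicate 3 of each HFD group. The averaged diet log2 fold change was 0.95, with a 95% interval of -0.28 to 2.19 and adjusted p = 0.357 in edgeR. Among libraries of the lower code level it was -0.0070 and of the higher one 2.03, neither of which passed. The fits on one code level used a term for genotype and a term for diet, with no separate mean per group. Any difference of the diet effects between genotypes thus enters their spread. Some groups there hold 1 library, whose spread is taken to be that of the other groups.

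Cyp8b1, the sterol hydroxylase that directs synthesis to cholic acid, was at 220, 186 and 267 CPM in the Mlkl-/- HFD livers, against 285, 142 and 153 CPM in the Mlkl-/- ND livers. The wild-type livers held it at 269, 364 and 280 CPM on HFD, against 125, 232 and 102 CPM on ND. Wild-type HFD livers were all above wild-type ND livers, while the Mlkl-/- groups overlapped. In wild-type mice the log2 fold change was 1.00 (SE 0.323, adjusted p = 0.108 in edgeR), and DESeq2 called it at 1.01 (adjusted p = 0.0176). Averaged over genotypes the log2 fold change was 0.61 (SE 0.227, adjusted p = 0.135 in edgeR), and DESeq2 called it at 0.61 (adjusted p = 0.0439). Leaving out Mlkl-/- ND replicate 1 also gave an edgeR call, at 1.02 in wild-type mice (adjusted p = 0.0455) and 0.82 on average (adjusted p = 0.0257), as did leaving out wild-type ND replicate 2 on average (0.84, adjusted p = 0.0326). Among libraries of the lower code level the averaged value was 0.05 (adjusted p = 0.966 in edgeR) and among those of the higher level 1.28 (adjusted p = 0.0125 in edgeR). The difference of the 2 diet effects was -0.78, with an interval of -1.77 to 0.21.

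Cyp7b1, an oxysterol hydroxylase of the alternative route, was at 153, 319 and 109 CPM in the Mlkl-/- HFD livers, against 461, 408 and 500 CPM in the Mlkl-/- ND livers. The wild-type livers held it at 44.7, 43.9 and 171 CPM on HFD, against 161, 242 and 194 CPM on ND. The Mlkl-/- HFD livers were all below the Mlkl-/- ND livers, whereas wild-type HFD replicate 3 lay within its ND range. The averaged log2 fold change was -1.22 (SE 0.396, adjusted p = 0.101 in edgeR), with -1.56 in the lower and -1.44 in the higher code level, and limma-voom called it (-1.44, adjusted p = 0.0203). Of the 11 alternatives other than leaving out 1 library, 2 called the averaged fall, limma-voom and edgeR without robust estimation. Of the 12 fits without 1 library, 2 called it, those without Mlkl-/- HFD replicate 2 and without wild-type HFD replicate 3. Without wild-type HFD replicate 3 the value in wild-type mice was -2.17 (adjusted p = 0.0153 in edgeR), where it was -1.20 with it (adjusted p = 0.266), and the averaged value was -1.70 (adjusted p = 0.00367). That library, the one within the ND range, was picked out after its values were seen, so these fits add no independent support. Cyp27a1, the mitochondrial enzyme that opens the alternative route, was at 276, 315 and 266 CPM in the Mlkl-/- HFD livers, against 309, 236 and 216 CPM in the Mlkl-/- ND livers. In wild-type livers Cyp27a1 was at 280, 218 and 315 CPM on HFD, against 281, 290 and 246 CPM on ND. These values overlapped throughout, and the averaged log2 fold change was 0.08 with an interval of -0.17 to 0.34.

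The other enzymes had small fold changes. Averaged over genotypes, the diet log2 fold change was 0.09 for the oxidoreductase Hsd3b7, 0.22 for the reductase Akr1d1 and 0.18 for the oxysterol hydroxylase Cyp39a1, and none passed. An annotated gene on the same strand, Gm49388, overlaps Hsd3b7 and resembles its end, so the Hsd3b7 value is uncertain. The same holds for Scp2, whose end resembles the pseudogene Scp2-ps2.

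The bile acid receptor Nr1h4 was at 94.8, 85.2 and 89.6 CPM in the Mlkl-/- HFD livers, against 139, 95.1 and 70.8 CPM in the Mlkl-/- ND livers. The wild-type livers held it at 99.8, 85.1 and 94.1 CPM on HFD, against 89.1, 113 and 95 CPM on ND. All 4 groups overlapped, and the averaged log2 fold change was -0.13 with an interval of -0.42 to 0.16. The co-repressor Nr0b2 was at 9.69, 33.3 and 7.58 CPM in the Mlkl-/- HFD livers, against 28.7, 50.9 and 24.4 CPM in the Mlkl-/- ND livers. In wild-type livers Nr0b2 was at 14.5, 16.6 and 13 CPM on HFD, against 43.6, 39.8 and 19.2 CPM on ND. In wild-type livers no HFD value reached an ND value, while Mlkl-/- HFD replicate 2 lay within its ND range. The diet log2 fold change of Nr0b2 was -1.21 in wild-type and -1.04 in Mlkl-/- mice, neither of which passed. Of the 10 alternatives other than leaving out 1 library, 1 called the wild-type fall, edgeR on the wild-type libraries alone (adjusted p = 0.0404). The averaged log2 fold change was -1.13 (SE 0.394, adjusted p = 0.126 in edgeR), and limma-voom called it at -1.21 (adjusted p = 0.0378). Without Mlkl-/- HFD replicate 2, the library within the ND range and picked out after its values were seen, the averaged value was -1.59 (adjusted p = 0.00467 in edgeR). Fgfr4 was at -0.34 (adjusted p = 0.0700), and Klb, the FGF15 co-receptor, and the xenobiotic receptors Nr1i2 (PXR) and Nr1i3 (CAR) at 0.06, -0.14 and 0.29, none of which passed. Nr1i3 shares exonic bases with Tomm40l on the opposite strand, and the strand setting of the counting is not known.

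**Figure D4:**
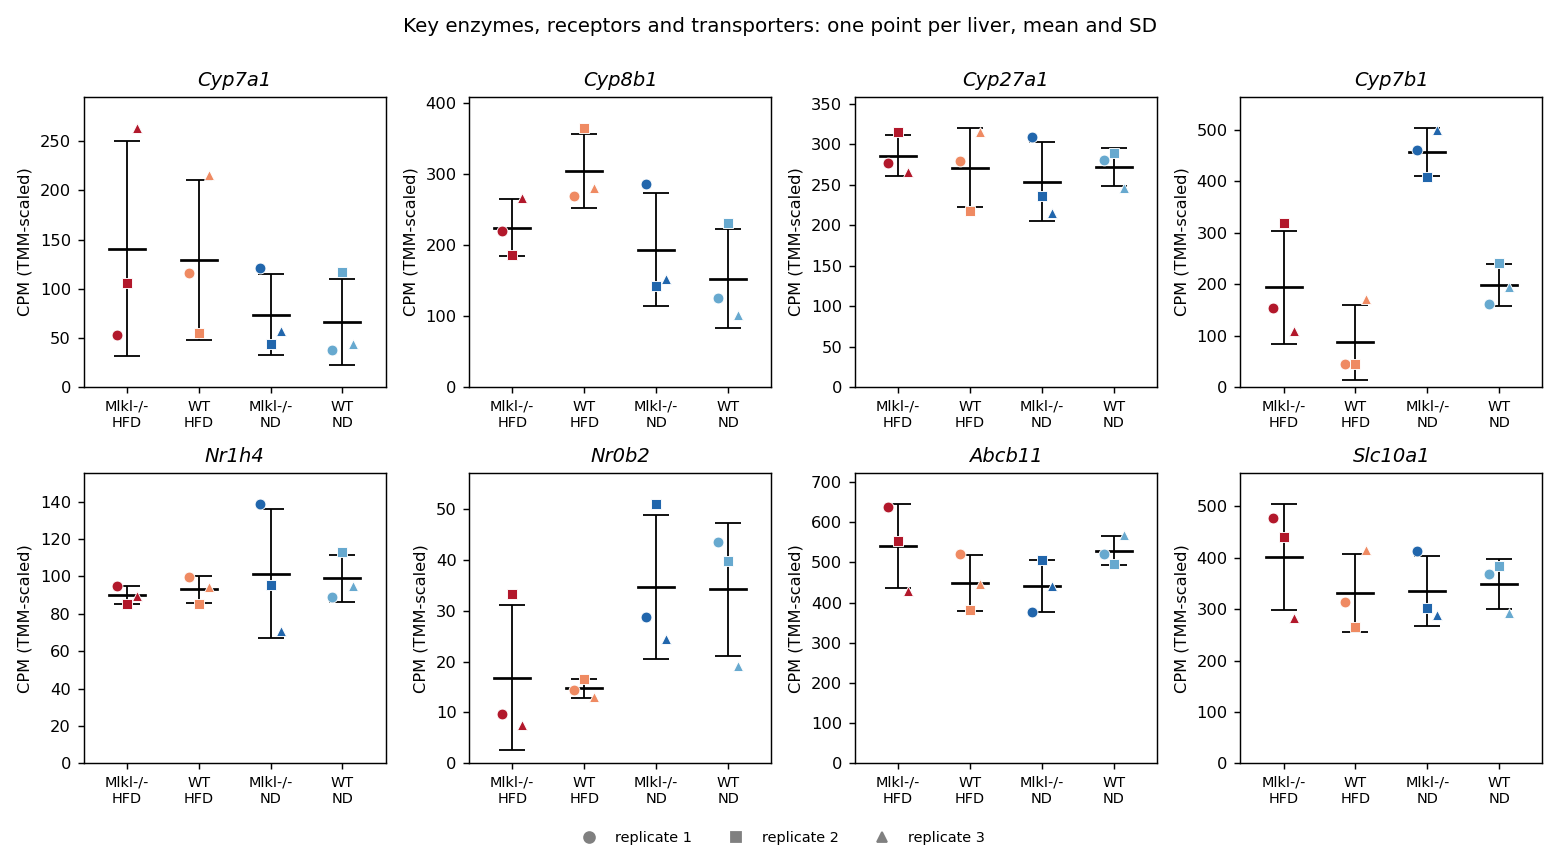
Level in CPM (TMM-scaled, linear axes from 0) of 8 key enzymes, receptors and transporters, one point per liver, with the mean and SD of each group. Cyp7b1 and Nr0b2 had lower means on HFD in both genotypes, with wild-type HFD replicate 3 of Cyp7b1 and Mlkl-/- HFD replicate 2 of Nr0b2 within the ND range. Cyp27a1 and Nr1h4 overlapped throughout.

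The canalicular bile salt pump Abcb11 was at 637, 554 and 429 CPM in the Mlkl-/- HFD livers, against 376, 506 and 442 CPM in the Mlkl-/- ND livers. The wild-type livers held it at 521, 381 and 446 CPM on HFD, against 521, 497 and 568 CPM on ND. The groups overlapped in both genotypes and the averaged log2 fold change was 0.03, with an interval of -0.24 to 0.29. Exons of Abcb11 overlap Gm13613 and Gm13614 on the opposite strand, so its value is uncertain. The main sodium-coupled importer Slc10a1 was at 478, 441 and 284 CPM in the Mlkl-/- HFD livers, against 414, 303 and 289 CPM in the Mlkl-/- ND livers. In wild-type livers Slc10a1 was at 314, 265 and 415 CPM on HFD, against 369, 385 and 293 CPM on ND. Its averaged log2 fold change was 0.09, with an interval of -0.24 to 0.42, and the end of at least 1 of its transcripts matches repeated sequence in many genes, so its level is uncertain. The sterol exporters Abcg5 and Abcg8, whose exons overlap each other on opposite strands, were at -0.15 and 0.12, and the aminophospholipid flippase Atp8b1 was at -0.34.

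Slco1a1, another organic anion importer, was chosen after its values were seen. It was at 51.5 and 28.6 CPM in wild-type HFD replicates 1 and 2 and at 460 CPM in replicate 3, against 388, 245 and 394 CPM in the wild-type ND livers. The same 2 wild-type HFD livers had the lowest Cyp7b1 levels of all 12. In Mlkl-/- livers Slco1a1 was at 320, 423 and 264 CPM on HFD, against 351, 511 and 357 CPM on ND. The wild-type diet log2 fold change was -0.93 (SE 0.877, adjusted p = 0.621 in edgeR), and without replicate 3 of the wild-type HFD group it was -3.10 (adjusted p = 0.000956). Replicate 3 is the liver that goes against the fall. Its removal was picked out after the values were seen, so the fits without it add no independent support. Without that library the averaged diet value was -1.69 (adjusted p = 0.00121), and Slco1a1 was higher in Mlkl-/- than in wild-type livers on HFD (3.07, adjusted p = 0.00610) by edgeR.

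In Mlkl-/- against wild-type livers 0 members passed in edgeR on HFD, where 0.0276% of all tested genes did, and 0 members passed on ND, where 0.00553% did. On HFD 7 members had an unadjusted p under 0.05, or 22.6% against 15.5% of all tested genes, and the genotypes did not overlap for 7, or 22.6% against 21.4%. On ND 3 had an unadjusted p under 0.05, or 9.68% against 5.51%, and 4 did not overlap, or 12.9% against 10.5%. DESeq2 called 5 members on HFD, with Cyp2c70 higher and Abcb4, Abcc2, Abcc3 and Slco1a4 lower in Mlkl-/- livers, where it called 2.20% of all tested genes, and 0 on ND, where it called 0.271%. limma-voom called 0 on either diet (0.0221% of all tested genes on HFD and 0% on ND). The median log2 fold change of the members was 0.06 on HFD, against 0.01 over all tested genes, and -0.06 on ND, against 0.00030 over all tested genes. Averaged over diets 0 members passed in edgeR (0.0166% of all tested genes), although 9 of 31 had an unadjusted p under 0.05, where 10.6% of all tested genes did. DESeq2 called Abcc3 lower and Cyp2c70 higher there, where it called 1.14% of all tested genes, and limma-voom called 0 members and 0.0111%.

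The genotype values of Abcc3, Abcc2 and Slco1a4 are given in full, chosen after their values were seen. Abcc3, which exports bile acids into blood, was at 140, 84.6 and 159 CPM in the Mlkl-/- HFD livers, against 259, 308 and 219 CPM in the wild-type HFD livers. On ND it was at 120, 125 and 92.9 CPM in Mlkl-/- livers, against 185, 154 and 182 CPM in wild-type livers. Every Mlkl-/- liver lay below every wild-type liver on the same diet. The log2 fold change was -1.04 on HFD (SE 0.211, adjusted p = 0.0948 in edgeR) and -0.63 on ND (SE 0.209, adjusted p = 0.662 in edgeR). Averaged over diets it was -0.83 (SE 0.148, adjusted p = 0.0725 in edgeR).

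The canalicular conjugate exporter Abcc2 was at 301, 363 and 411 CPM in the Mlkl-/- HFD livers, against 561, 611 and 508 CPM in the wild-type HFD livers. On ND it was at 360, 500 and 362 CPM in Mlkl-/- livers, against 384, 424 and 504 CPM in wild-type livers. The groups did not overlap on HFD and did on ND, with a log2 fold change of -0.64 on HFD (SE 0.176, adjusted p = 0.152 in edgeR). The importer Slco1a4 was at 32.8, 37.9 and 22.1 CPM in the Mlkl-/- HFD livers, against 67.2, 69.4 and 43.7 CPM in the wild-type HFD livers. On ND it was at 63.1, 66.7 and 44.9 CPM in Mlkl-/- livers, against 46.5, 50.7 and 87.3 CPM in wild-type livers. Its Mlkl-/- HFD livers lay below every other liver, with a log2 fold change of -0.96 on HFD (SE 0.276, adjusted p = 0.164 in edgeR). The exporter Abcc4 and the co-receptor Klb had genotype log2 fold changes of -1.30 and -0.30 on HFD and did not pass, and Abcc4 had as few as 16 counts in a library.

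In the enzymes, Cyp2c70 had log2 fold changes of 0.96 on HFD and 0.73 on ND, with no overlap on either diet (adjusted p = 0.162 and 0.771 in edgeR). Cyp7b1 had values of 1.16 on HFD and 1.20 on ND, with no overlap on ND only (adjusted p = 0.349 and 0.912 in edgeR). Baat had 0.39 on ND, again without overlap (adjusted p = 0.728 in edgeR). Without wild-type HFD replicate 3, edgeR called Cyp7b1 (2.13, adjusted p = 0.0346) and Slco1a1 higher and Abcc3 lower (-1.15, adjusted p = 0.0370) in Mlkl-/- livers on HFD. Averaged over diets it then called the same 3, at 1.66 for Cyp7b1 (adjusted p = 0.0325), 1.66 for Slco1a1 (adjusted p = 0.0164) and -0.89 for Abcc3 (adjusted p = 0.0422). With all 12 libraries edgeR called 0 members in these comparisons, and the library left out was picked after the values were seen.

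**Figure D5:**
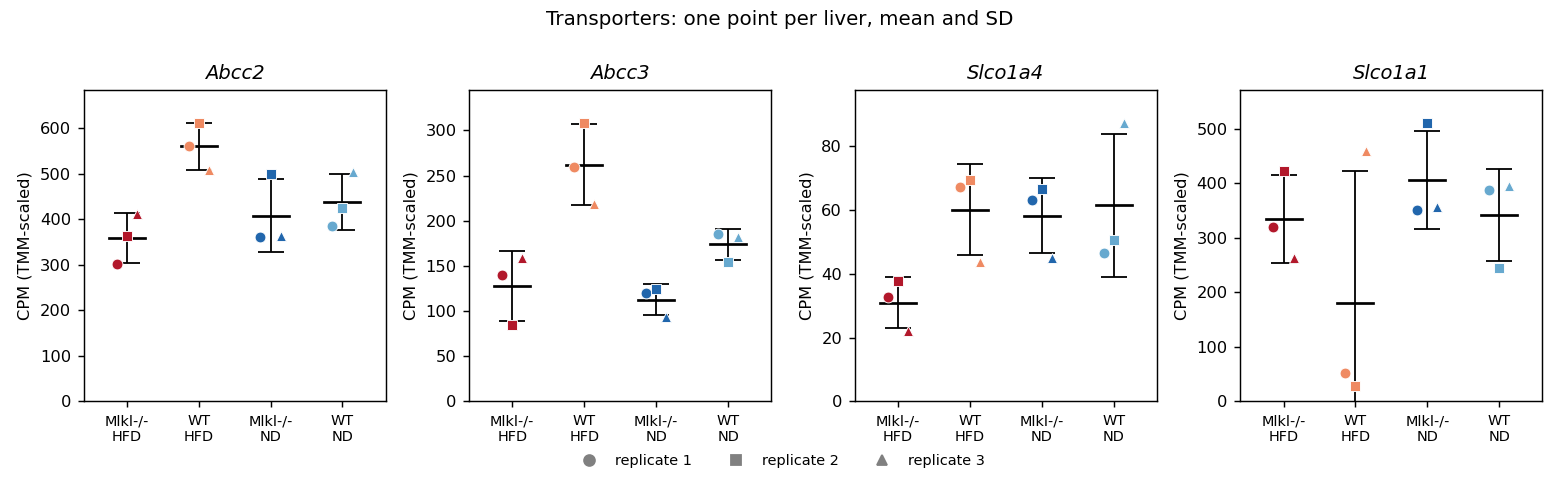
Level in CPM (TMM-scaled, linear axes from 0) of 4 transporters chosen after their values were seen, one point per liver, with the mean and SD of each group. Abcc3 was lower in Mlkl-/- than in wild-type livers on each diet, Slco1a4 and Abcc2 were lowest in Mlkl-/- HFD livers on average, and 2 of 3 wild-type HFD livers had Slco1a1 at 51.5 and 28.6 CPM. The SD bar of Slco1a1 in the wild-type HFD group reaches below the axis at 0, and WT stands for wild-type.

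The test of whether the diet effect differs between genotypes called 0 members and 0% of all tested genes in edgeR, 0 members and 0.320% in DESeq2, and 0 members and 0% in limma-voom. An unadjusted p under 0.05 was found for 2 members, Slco1a4 (-0.88) and Abcc2 (-0.54), or 6.45% against 10.4% of all tested genes. The members that passed in wild-type and not in Mlkl-/- mice are therefore not shown to respond differently to diet.

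The other genes of the pathway came from a list of 51 names, of which 50 matched and 43 were tested. In wild-type mice Abcb1a was higher (0.76, adjusted p = 0.0423) and Cyp3a11 lower (-2.69, adjusted p = 0.0188), and in Mlkl-/- mice Cyp3a11 was lower (-3.14, adjusted p = 0.0352), all in edgeR. Averaged over genotypes 5 were higher and 2 lower on HFD, together 16.3% of the 43 against 7.19% of all tested genes. The higher ones were the importer Slco2b1 (0.40), the exporter Abcb1a (0.61), the peroxisomal enzymes Hsd17b4 (0.39) and Ehhadh (0.47) and the sterol carrier Stard4 (0.50). The lower ones were the drug and bile acid hydroxylase Cyp3a11 (-2.92, adjusted p = 0.00192 in edgeR) and the receptor Fgfr1 (-1.07). Cyp3a11 was at 216 to 467 CPM in the Mlkl-/- HFD livers, against 1728 to 3542 CPM in the Mlkl-/- ND livers. The wild-type livers held it at 213 to 810 CPM on HFD, against 2821 to 4443 CPM on ND. Cyp3a genes resemble one another in sequence, and shared reads were not checked for Cyp3a11, so its value is uncertain. In Mlkl-/- against wild-type livers 0 of the 43 passed on either diet in edgeR, with 6 at an unadjusted p under 0.05 on HFD, where 15.5% of all tested genes had one, and 2 on ND, where 5.51% did.

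Cell markers moved with these groups, and their part in the results above was not tested. Calls here are edgeR's, read against 2.02% of all tested genes higher and 2.21% lower with diet in wild-type mice, 0.359% called with diet in Mlkl-/- mice and 0.0276% with genotype on HFD. In wild-type mice the summed hepatocyte markers were at 86170, 62130 and 69450 CPM on HFD, against 114200, 117300 and 114600 CPM on ND, and 3 of 9 were called lower. In Mlkl-/- mice they were at 84200, 108800 and 93240 CPM on HFD, against 86380, 125500 and 115200 CPM on ND, and 0 were called.

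Pericentral hepatocyte markers were at 6858 to 8110 CPM in Mlkl-/- HFD livers, against 4985 to 6370 CPM in Mlkl-/- ND livers, with 0 of 10 called. They were at 6696 to 9863 CPM in wild-type HFD livers, against 5251 to 5878 CPM in wild-type ND livers, with 3 of 10 called higher. HFD livers were thus above ND livers for this sum in both genotypes. Periportal hepatocyte markers were at 7984 to 14400 CPM in Mlkl-/- HFD livers, against 10150 to 13290 CPM in Mlkl-/- ND livers, with 0 of 10 called. Wild-type livers held them at 5492 to 9341 CPM on HFD, against 10700 to 13460 CPM on ND, without overlap and with 1 of 10 called lower.

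Kupffer cell markers were at 129 to 249 CPM in Mlkl-/- HFD livers, against 268 to 375 CPM in wild-type HFD livers, without overlap and with 0 of 10 called. Wild-type ND livers held them at 180 to 244 CPM, below every wild-type HFD liver, again with 0 called. Markers of recruited macrophages were at 144, 222 and 69.5 CPM in wild-type HFD livers, against 70.2, 74.3 and 69.5 CPM in wild-type ND livers, with 5 of 10 called higher. They were at 55.8 to 92.0 CPM in Mlkl-/- HFD livers, against 92.4 to 141 CPM in Mlkl-/- ND livers, with 0 called. Sinusoidal endothelial markers were at 129 to 161 CPM in Mlkl-/- HFD livers, against 241 to 375 CPM in wild-type HFD livers, and 2 of 10 were called lower. Mlkl-/- ND livers held these at 166 to 254 CPM, above every Mlkl-/- HFD liver. Cholangiocyte markers were at 77.86, 138.7 and 33.75 CPM in wild-type HFD livers, against 41.94 to 47.43 CPM in wild-type ND livers. Mlkl-/- livers held them at 33.87 to 45 CPM on HFD and 50.11 to 115.3 CPM on ND. Spp1 stands in this list and in that of recruited macrophages. Stellate markers were at 500.5, 419.8 and 270 CPM in wild-type HFD livers, against 266.5 to 336.8 CPM on ND. In Mlkl-/- livers they were at 246.5 to 270.8 CPM on HFD and 273.8 to 310.4 CPM on ND. All 10 genes of each list from pericentral to stellate were matched, and none was at 0 in every library.

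Of 6 listed enterocyte markers, Fabp6, Fgf15 and Cdx2 were at 0 in every library. The summed level was almost all Apoa4, an apolipoprotein that liver also makes and the one gene of the list tested. The sum was at 1980, 1331 and 1495 CPM in Mlkl-/- HFD livers, against 484, 118 and 195 CPM in Mlkl-/- ND livers, and Apoa4 did not pass there (2.59, adjusted p = 0.0990 in edgeR). It was at 3175, 4768 and 1919 CPM in wild-type HFD livers, against 174, 224 and 83.2 CPM in wild-type ND livers, and Apoa4 was called higher (4.36, adjusted p = 0.00927 in edgeR). Adipocyte markers were at 969 to 1594 CPM in wild-type HFD livers, against 1754 to 1939 CPM in wild-type ND livers, with 0 of 7 called. In Mlkl-/- livers they overlapped, at 954 to 1318 CPM on HFD and 939 to 2155 CPM on ND. The sum includes Car3 and is not split by gene here, so it is not read as a measure of adipocytes. In bulk liver, fewer cells of a type and less RNA per cell cannot be told apart.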

How the data were processed

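Liver RNA of 12 mice was sequenced from transcript 3' ends with Lexogen's QuantSeq kit on an Illumina NextSeq, per the labels' protocols. Per the submitters' processing notes, the tools named were cutadapt 1.9, HISAT2, featureCounts and limma, with mm10. Other settings, strand use and the handling of multi-mapped reads were not found in the sources. The authors deposited raw counts per gene and library, with no normalization.

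The members and lists were chosen with earlier results of these data known. Counts were tested with edgeR 4.0.16 in R 4.3.3 after filterByExpr (10 counts, 15 in total), with TMM factors of 0.922 to 1.16. A model with 1 mean per group, with robust quasi-likelihood dispersions over the 12 libraries, gave 7 contrasts: diet in each genotype, genotype on each diet, their interaction, and both averages. Adjustment followed Benjamini and Hochberg over 18098 genes, and a gene was called at adjusted p under 0.05. SE and 95% intervals come from that fit, and SD is over 3 libraries. The script was tested on simulated data. DESeq2 1.42.0, limma-voom (limma 3.58.1), other scalings and filters, added model terms and leaving out each library were alternatives. The added terms were the code level and the level of the loci that are mostly annotated small RNAs. Neither is labelled as a batch, and the split by those loci runs largely with diet. Members named with values are those called by edgeR in any contrast and Cyp7a1, Cyp8b1, Cyp27a1, Cyp7b1, Nr1h4, Nr0b2, Abcb11 and Slc10a1. Slco1a1, Abcc3, Abcc2 and Slco1a4 were added after their values were seen. Other members are given by level or fold change. No molecular identifiers are named. Replicate libraries differed beyond sampling noise (chi-square of 17.9 to 125 per degree of freedom), so none was a copy. The labels number the animals separately, and nothing else says that replicates are separate cages or litters. The p-values thus set differences of group means against the spread between these samples only. Positions come from GENCODE M21 and promoters from RefSeq GRCm38.p6.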

Additional observations from a re-analysis of the deposited data

How the results depend on the processing

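No paired analysis was possible because the labels give each animal its own number and no number is shared between groups. Counts of genes called are given with the members called. The main fit tested 18098 genes, the fit with no filter 30718 and that with 5 CPM in 3 libraries 11521. Fits that changed the libraries or added a term tested 17052 to 18610. Counts from these settings are thus not shares of the same total. For HFD against ND in wild-type mice (766 genes, 3 members), DESeq2 called 1465 genes, the compared groups alone 1431 and 5 members, and the 8-locus term 159 and 0 members; leaving out 1 library gave 63 to 1233 genes and 0 to 4 members. In Mlkl-/- mice (65 and 0) library size gave 100, no filter 171, DESeq2 514 and 3 members, the compared groups 8 and the 8-locus term 27; leaving out 1 library gave 13 to 729 and 0 to 1. For Mlkl-/- against wild-type on ND (1 and 0) no filter gave 10, DESeq2 49, limma-voom 0, the compared groups 0, the code level term 2 and the 8-locus term 3; leaving out 1 library gave 0 to 6 and 0 to 0. On HFD (5 and 0) library size gave 36, no filter 124 and 1 member, 5 CPM in 3 libraries 2, DESeq2 398 and 5 members, no robust estimation 3, the compared groups 2, the code level term 3 and the 8-locus term 8; leaving out 1 library gave 0 to 189 and 0 to 3. For the difference of diet effects (0 and 0) no filter gave 1, DESeq2 58 and the 8-locus term 2; leaving out 1 library gave 0 to 4 and 0 to 0. For the averaged diet effect (1302 and 4) library size gave 1980, the 8-locus term 121 and 0 members, the lower code level alone 53 and 0, and the higher 782 and 2; leaving out 1 library gave 616 to 2029 and 2 to 7. For the averaged genotype effect (3 and 0) library size gave 6, no filter 74 and 1 member, DESeq2 207 and 2, the code level term 14, the lower code level alone 312 and 2 members (Abcc4 and Klb, lower), and the higher 1; leaving out 1 library gave 1 to 33 and 0 to 3. Values of single members under an alternative were tallied for Cyp2c70, Baat, Slco1b2, Abcb4, Cyp7a1, Cyp8b1, Cyp27a1, Cyp7b1, Nr1h4, Nr0b2, Abcb11 and Slc10a1. The other members were left out of this tally, although some of them, such as Abcc3, were called under an alternative. Of the 1860 values tallied, 1728 kept their side of the threshold and, where not called, stayed within 1 SE. A call was lost in 48 and gained in 23, and 61 that were not called moved by more than 1 SE; the cause was not tested. No called value changed sign, while uncalled values near 0 could.

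Scaling by library size alone moved the median of all genes to 0.19 for diet in wild-type mice, 0.13 for the averaged diet effect, -0.16 for genotype on HFD, and -0.10 for both the averaged genotype effect and the difference of diet effects. With 3 animals per group, differences smaller than the spread between livers, such as that of Cyp7a1, could not be shown. Whether depth limits the members was not tested. The lowest count in a library was 16 for Abcc4, the least abundant, and 184 for Nr0b2, the next lowest by that measure.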
